A study of Mus musculus with 15 samples.

Results

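What remained different from wild type after Hmga1 had been put back into a line that had lost it was measured gene by gene. The comparison was between 2 samples of an Hmga1 add-back line (a and b) and 3 samples (a, b and c) of its wild-type (WT) parent, which are 5 of the 15 RNA-seq samples of the series. Included was every gene whose count averaged 10 or more over the 9 samples of the same experiment, 13912 of the 21662 in the table. The cells were mouse embryonic stem cells (ESC) of mixed 129Sv-C57Bl/6 background, grown in serum and LIF on feeder cells or gelatine. The parental line, and so every line made from it, expressed a BirA biotin ligase with a V5 tag from the constitutive CAG promoter. In the Hmga1 KO line, Cas9 cutting at the junction of the third exon with its intron had shifted the reading frame, and in the add-back the KO line had then received a biotin-tagged Hmga1 cDNA, also under CAG, by Cre-mediated exchange at 1 fixed locus. The labels give its genotype as Hmga1 KO with Hmga1 rescue. KO and add-back are each 1 line made from 1 clone, so that the 2 samples of a line are cultures of that line, and p-values measure the spread between cultures. What is particular to the clone and what follows from the genotype cannot be told apart. The KO (2 samples) and an Hmga2 add-back (2 samples), made in the same way from the same KO line, shared the estimate of the spread, and the KO values are set beside those of the add-back.

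Hmga1 is an abundant nuclear protein without enzymatic activity. It binds the minor groove of AT-rich DNA through short AT-hook motifs and bends it, and it is found on mitotic chromosomes and in heterochromatin as well as in active regions. It is high in embryonic and in many tumour cells and low in most adult tissues, and Hmga2 is its close paralog.

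The cut lies where the third exon of Hmga1 meets the following intron. In NCBIM37, the build of the files, the gene lies on the plus strand of chromosome 17, and the exon runs from 27697873 to 27697956. The last 20 bases of the exon (capitals) and the first 10 of the intron (lower case), chr17:27697937-27697966, are shown because the KO allele and everything derived from it differ from WT at this junction.
Hmga1 exon 3 and intron: AGGGCGCCGCCAAGACCCGGgtgagcctcc
The intact WT allele has the splice donor gt directly after the capitals. The mutant allele itself is not shown.

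Counts on genes summed to between 13491195 and 32195653 in the 5 samples, and were higher in batch a than in batch b. Letters mark batches of libraries prepared on 1 day and sequenced on 1 flow cell, and WT c had no partner in its batch, so the batch term took up its value. WT a and WT c stood apart from the other 7 samples of the experiment. They had a count for 19677 and 19531 genes, against 16088 to 17298 in the others, and 5082 genes close to silent on average over the KO-derived samples summed in them to 261 and 432 CPM (counts scaled to 1 normalized total per sample), against 27.9 to 40.0 CPM in the others, WT b among these. The choice of these genes fixed the low sums of the KO-derived samples. Only that of WT b, at 35.6 CPM, was free of it. Batch b therefore holds the pair without this background, and within-batch values are given throughout as the log2 ratio of add-back a to WT a and of add-back b to WT b. The ESC genes Pou5f1, Sox2, Nanog, Zfp42 and Esrrb were expressed in all 5 samples, with Pou5f1 between 711 and 1047 CPM. Of the fibroblast genes that would mark feeder cells, Col1a1, Col1a2 and Col3a1 were at or below 1.26 CPM in each sample. Thy1, also such a gene, was at 6.01, 2.64 and 3.36 CPM in WT a, b and c. It was at 10.9 and 6.07 CPM in add-back a and b, both above the WT range. The 22 listed fibroblast genes tested summed to between 1205 and 1322 CPM in WT and to 1306 and 1226 CPM in the add-back.

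Transcription in the add-back line was close to that of WT, and the genes that passed the test were on the Y chromosome. With edgeR's quasi-likelihood test, 2 genes (0.0144%) changed at least 2-fold with an adjusted p under 0.01 and were thus called, Eif2s3y and Uty, both lower. At an adjusted p under 0.05 and 2-fold there were 6 genes (0.0431%), of which 2 were higher (Tuba3a and Hydin) and 4 lower (Eif2s3y, Uty, Ddx3y and Nudt3). The number called depended on WT b: without it, 37 genes were called, 18 of them higher and 19 lower, and of these 27 had the same sign and 10 a 2-fold change in the batch b pair. At an adjusted p under 0.05 the count was 519 without WT b, 12 without WT c, 2 without WT a, without KO a, without KO b or without add-back a, and 4 without add-back b or without either of the Hmga2 add-back samples. In the fit without WT b, the WT level rests on WT a alone, because the batch term takes up WT c. In the fit without WT a it rests on WT b alone. The counts from these fits thus reflect a single WT library and are no measure of changes that the sample left out had hidden. For most genes the full comparison set a narrow bound. The 95% interval of the fold change lay within 2-fold of WT in either direction for 9961 genes (71.6%), for 9806 of 11638 genes whose counts averaged 50 or more (84.3%), and for 4660 of 4806 that averaged 1000 or more (97.0%). The median size of a log2 fold change was 0.19, and the median standard error was 0.18.

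Eif2s3y and Uty were at about a hundredth of their WT level or slightly above. Eif2s3y (chrY:346986-365290), a subunit of a translation initiation factor that is needed in spermatogonia, was at 47.6, 61.6 and 73.9 CPM in WT a, b and c and at 0.603 and 1.27 CPM in add-back a and b. Uty (chrY:433304-582202), the Y-linked relative of the histone demethylase Kdm6a, was at 30.9, 41.4 and 37.0 CPM in WT and at 0.316 and 0.825 CPM in the add-back. For both genes every add-back sample was far below every WT sample. The log2 fold change was -5.97 for Eif2s3y (SE 0.23, edgeR adjusted p 3.80e-05) and -6.15 for Uty (SE 0.33, edgeR adjusted p 3.26e-04). The third gene, Ddx3y (chrY:597158-623056), an RNA helicase, was at 7.18, 11.9 and 12.99 CPM in WT and at 0.488 and 1.35 CPM in the add-back (log2 fold change -3.51, SE 0.40, edgeR adjusted p 0.0410). Uba1y, a ubiquitin-activating enzyme, did not pass, with 0.822, 1.01 and 1.16 CPM in WT and 0.258 and 0.600 CPM in the add-back. Eif2s3y, Uty and Ddx3y were also lower in the series' other experiment, in a line with the whole Hmga1 gene deleted. Eif2s3y was at 80.6 ± 27.2 CPM in its WT and 29.7 ± 1.09 CPM in the deletion line (SD, n = 3 each). Uty was at 29.7 ± 4.87 and 1.73 ± 0.518 CPM, and Ddx3y at 12.04 ± 1.28 and 1.05 ± 0.0263 CPM. Whether the lower levels in both experiments share a cause was not tested.

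The Y-linked reads were few but not absent. As a share of the WT level in batches a and b together, the add-back kept 1.53% of Eif2s3y (38 counts, exact 95% interval 1.08 to 2.10%), 1.35% of Uty (22 counts, 0.842 to 2.05%) and 8.51% of Ddx3y (35 counts, 5.84 to 12.1%), intervals that cover counting error only. In such bulk samples, fewer cells with a gene on and less RNA per cell cannot be told apart. A read that aligns equally well to an X-linked relative is placed at random, and the part of such reads in these counts was not tested. The KO line from which the add-back was made already had low levels, with Eif2s3y at 1.18 and 2.20 CPM, Uty at 1.07 and 3.04 CPM and Ddx3y at 1.74 and 3.19 CPM in KO a and b. Each of the 3 was lower still in the add-back than in the KO of the same batch. The log2 fold changes of add-back against KO were -0.88, -1.82 and -1.54, with unadjusted edgeR p of 0.0114, 0.00129 and 0.00571, and none passed after adjustment. The Hmga2 add-back was also below the KO in both batches, so this further drop was not particular to the Hmga1 add-back. It had Eif2s3y at 0.148 and 0.282 CPM, Uty at 0.0889 and 0.211 CPM and Ddx3y at 0.0592 and 0.563 CPM. The X-linked relatives of these genes were tested too: of 9, none had an unadjusted p under 0.05 with a higher level, and 2 had one with a lower level, Kdm6a at a log2 fold change of -0.42 and the weakly expressed Sox3 (1.14, 0.776 and 1.29 CPM in WT, 0.574 and 0.375 CPM in the add-back).

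**Figure D1:**
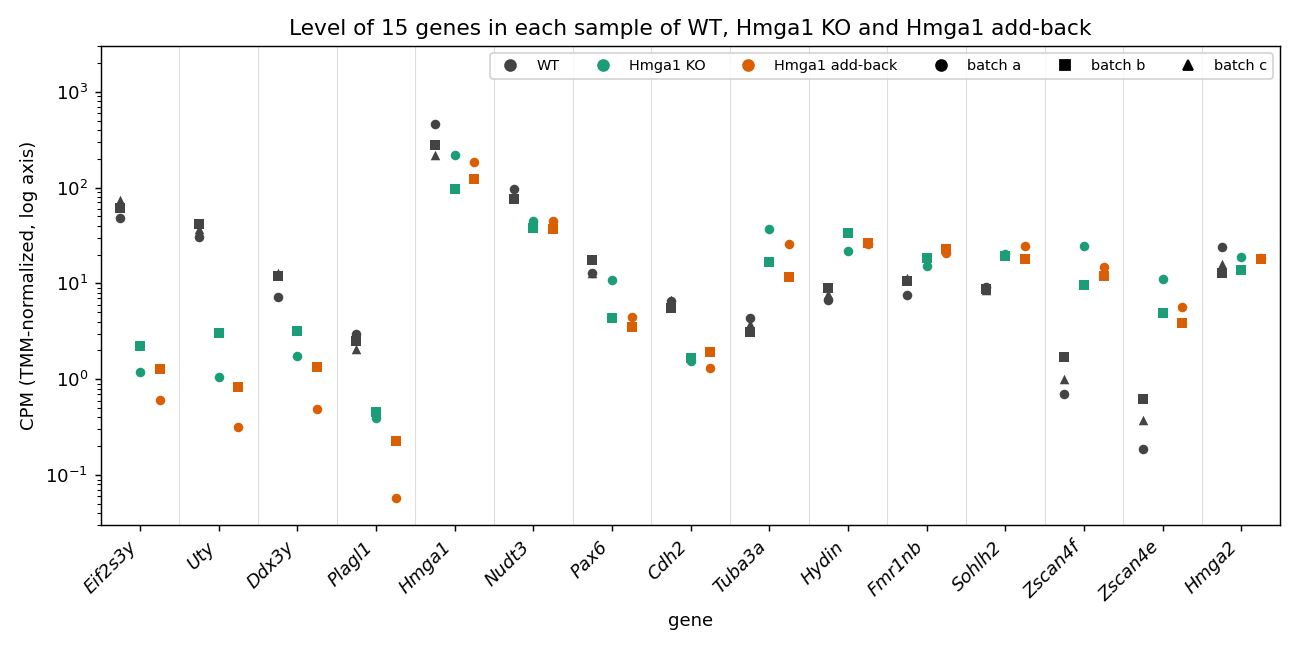
TMM-normalized CPM on a log axis for 15 genes, with 1 point per sample, coloured by line (WT, Hmga1 KO, Hmga1 add-back) and shaped by batch. The Y-linked genes and Plagl1 are low in KO and add-back alike, Tuba3a, Hydin, Fmr1nb, Sohlh2 and the Zscan4 genes are high in both, and Hmga2 is level in all 3 lines.

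Hmga1 itself had similar counts in the add-back and in the KO. Hmga1 (chr17:27693565-27700619) was at 464, 276 and 221 CPM in WT, at 217 and 96.1 CPM in the KO and at 184 and 123 CPM in the add-back. All 4 samples of the KO and the add-back were below all WT samples. Against WT the log2 fold change of the add-back was -1.25 (SE 0.17, edgeR adjusted p 0.0526) and that of the KO -1.29, and add-back against KO differed by 0.04 with a 95% interval from -0.34 to 0.42. A count per gene does not separate the inserted cDNA from the endogenous transcript. Coding sequence is 321 of the 1635 exonic bases of the annotated transcript (19.6%), so that a cDNA limited to it would add reads only there, and reads of Hmga1 can also be placed at its pseudogenes. These totals do not separate add-back from KO samples, and by themselves they do not check those labels. In the Hmga2 add-back, whose cDNA was inserted in the same way, Hmga2 was at 249 and 222 CPM in batches a and b. The KO had 18.9 and 13.8 CPM of Hmga2, so counts did rise with that insert. Why those of Hmga1 did not rise over the KO was not tested. Protein was not analysed here. In the other experiment of the series, Hmga1 was at 341 ± 26.1 CPM (SD, n = 3) in WT and at 11.8 ± 0.766 CPM (SD, n = 3) in the line with the whole gene deleted.

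Neighbours of Hmga1 on its downstream side were at similar levels in the KO and the add-back. AI413582 (chr17:27700520-27702694, minus strand), named after its values were seen, overlaps the last 100 bases of Hmga1 on the other strand. It was at 2.72, 2.56 and 1.74 CPM in WT and at 0.460 and 0.225 CPM in the add-back, and the KO had 0.673 and 0.532 CPM. The log2 fold change was -2.86 (SE 0.41, edgeR adjusted p 0.0736; -2.37 in batch a and -3.10 in batch b), on 16 and 3 counts in the add-back samples, and the DESeq2 Wald test called it. The next gene, Nudt3 (chr17:27716327-27760410, minus strand), a phosphohydrolase of inositol phosphates and of capped RNA that faces Hmga1 tail to tail, is well expressed. It was at 97.2, 75.8 and 82.8 CPM in WT and at 45.3 and 36.7 CPM in the add-back. Its log2 fold change was -1.07 (SE 0.11, edgeR adjusted p 0.0242), almost the same in batch a (-1.10) and batch b (-1.04). The KO had 45.2 and 38.1 CPM, and add-back and KO differed by -0.02 on the log2 scale. The full-deletion experiment had 210 ± 68.1 CPM in WT and 121 ± 5.48 CPM in the deletion line (SD, n = 3 each). Of the 9 listed genes around Hmga1 that were tested, a list without AI413582, 2 others had an unadjusted edgeR p under 0.05. They were Pacsin1, a membrane-bending protein of endocytosis, at a log2 fold change of 1.41 but only 0.55 in batch b, and Grm4, a glutamate receptor, at 1.15 but -0.04 in batch b. The paralog Hmga2 was at 23.8, 12.8 and 15.8 CPM in WT and at 18.5 and 17.8 CPM in the add-back, a log2 fold change of 0.00 with a 95% interval from -0.44 to 0.45, whose sign changed with the processing. Of the 7 listed Hmga genes and Lin28 and Igf2bp RNA-binding proteins, 4 had an unadjusted p under 0.05, all lower: Hmga1, Lin28b at -0.53, Lin28a at -0.51 (-0.94 in batch a, -0.06 in batch b) and Igf2bp1 at -0.39. The list median was -0.57 in batch a and -0.07 in batch b. Among the 10 other high-mobility-group genes, 1 did, Hmgb1 at -0.33.

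The 2 higher genes past an adjusted p of 0.05 are known from the testis and from cilia. Tuba3a (chr6:125228292-125236060), an alpha-tubulin best known from the testis, was at 4.36, 3.10 and 3.74 CPM in WT and at 25.5 and 11.5 CPM in the add-back, with no overlap (log2 fold change 2.28, SE 0.21, edgeR adjusted p 0.0152). Its near-identical copy Tuba3b, which may share reads with it, had a log2 fold change of 2.12 (edgeR adjusted p 0.0905), while the other 4 alpha-tubulins tested lay between -0.31 and -0.22. Hydin (chr8:112790877-113134153), a protein of the central apparatus of motile cilia, was at 6.64, 9.0 and 7.80 CPM in WT and at 26.1 and 26.5 CPM in the add-back (log2 fold change 1.78, SE 0.18, edgeR adjusted p 0.0229). The KO had Tuba3a at 36.8 and 16.7 CPM and Hydin at 21.8 and 33.8 CPM. Add-back against KO gave -0.53 for Tuba3a and -0.03 for Hydin. In the full-deletion experiment Tuba3a was at 12.5 ± 2.42 CPM in WT and 16.5 ± 0.302 CPM in the deletion line, and Hydin at 28.8 ± 8.74 and 14.8 ± 1.29 CPM (SD, n = 3 each), so Hydin had the opposite order there.

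The adjusted p of the 4 genes between 0.01 and 0.05 changed when samples were left out. Leaving out WT a, KO a, KO b or add-back a, each in turn, took Tuba3a, Hydin, Nudt3 and Ddx3y all past 0.05. Leaving out add-back b did so for Nudt3 and Ddx3y, and leaving out either Hmga2 add-back sample did so for Hydin and Nudt3. Over all alternatives the highest adjusted p was 0.216 for Tuba3a and Hydin, 0.476 for Nudt3 and 0.657 for Ddx3y. Their log2 fold changes went from 1.97 to 2.49 for Tuba3a, from 1.51 to 2.00 for Hydin, from -1.13 to -1.01 for Nudt3 and, over a wider range, from -3.79 to -2.75 for Ddx3y. Without the batch term the edgeR adjusted p was 0.175, 0.0765, 0.175 and 0.184 for these genes in the same order.

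Genes of the germ line, taken as a list, were higher too. Before adjustment, 1100 of all genes (7.91%) had an edgeR p under 0.05 with a higher level and 744 (5.35%) with a lower one, 1844 in all where 696 would be expected with no difference. Both add-back samples lay above the WT range for 1419 genes (10.2%) and below it for 1056 (7.59%). Of the 48 listed germline and meiosis genes, 31 were tested, with Tuba3a, Hydin and Fmr1nb among them. The list was chosen with earlier results of these data known. Of the 31 genes, 16 had an unadjusted p under 0.05 and were higher, none was lower, and 12 lay above the WT range. Their median log2 fold change was 0.51 (0.36 in batch a, 0.81 in batch b), against 0.00 over all genes tested, and 0.79 in the KO. Against the KO the median was -0.25, with 8 lower and 1 higher at an unadjusted p under 0.05. Fmr1nb (chrX:66015014-66057742), a testis antigen next to the fragile X gene, was at 7.65, 10.6 and 11.5 CPM in WT and at 20.9 and 22.9 CPM in the add-back (log2 fold change 1.29, SE 0.16, edgeR adjusted p 0.0504). The KO lay between them, at 15.4 and 18.5 CPM. In the full-deletion experiment Fmr1nb was at 46.9 ± 11.2 CPM in WT and 29.5 ± 2.95 CPM in the deletion line (SD, n = 3 each), the opposite order. Sohlh2, a transcription factor of early germ cells, was at 9.20, 8.69 and 8.63 CPM in WT and at 24.4 and 18.1 CPM in the add-back (log2 fold change 1.25, edgeR adjusted p 0.0504), and M1ap, needed in male meiosis, had a log2 fold change of 2.05. The cohesin subunit Smc1b, chosen after its values were seen, had 0.96. Ddx4 and Piwil2, of the same list, had -0.04 and 0.10.

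A different set of genes, those of the rare ESC that resemble the embryo at the 2-cell stage, had a larger shift. Of the 28 listed genes 21 were tested, 16 had an unadjusted edgeR p under 0.05 and were higher, none was lower, and 16 lay above the WT range. The median log2 fold change was 2.87 (2.82 in batch a, 2.04 in batch b). Zscan4f was at 0.696, 1.71 and 0.996 CPM in WT and at 14.8 and 11.9 CPM in the add-back, and Zscan4e at 0.190, 0.621 and 0.374 CPM against 5.74 and 3.90 CPM. Every add-back sample was above every WT sample for both. Their log2 fold changes were 3.65 (SE 0.59) and 3.85 (SE 0.63), and the edgeR adjusted p was 0.0811 for each. Zscan4 proteins are nuclear factors of telomere maintenance, and the copies are so alike that reads are split among them at random. Others of the list were Gm4340 at 3.49, the deubiquitinase gene Usp17lc at 3.07 and Tmem92, chosen after its values were seen, at 3.15, and members with small values were Eif1ad at -0.32 and Eif1a at -0.28. The KO had 24.8 and 9.58 CPM of Zscan4f and a list median of 3.35, and add-back against KO had a median of -0.55. In the full-deletion experiment Zscan4f was at 5.12 ± 0.180 CPM in WT and 2.65 ± 0.223 CPM in the deletion line (SD, n = 3 each). Zscan4e was at 1.07 ± 0.0629 and 0.665 ± 0.0169 CPM, so both had the opposite order there. In these bulk samples the share of cells that resemble the 2-cell stage was not measured.

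**Figure D2:**
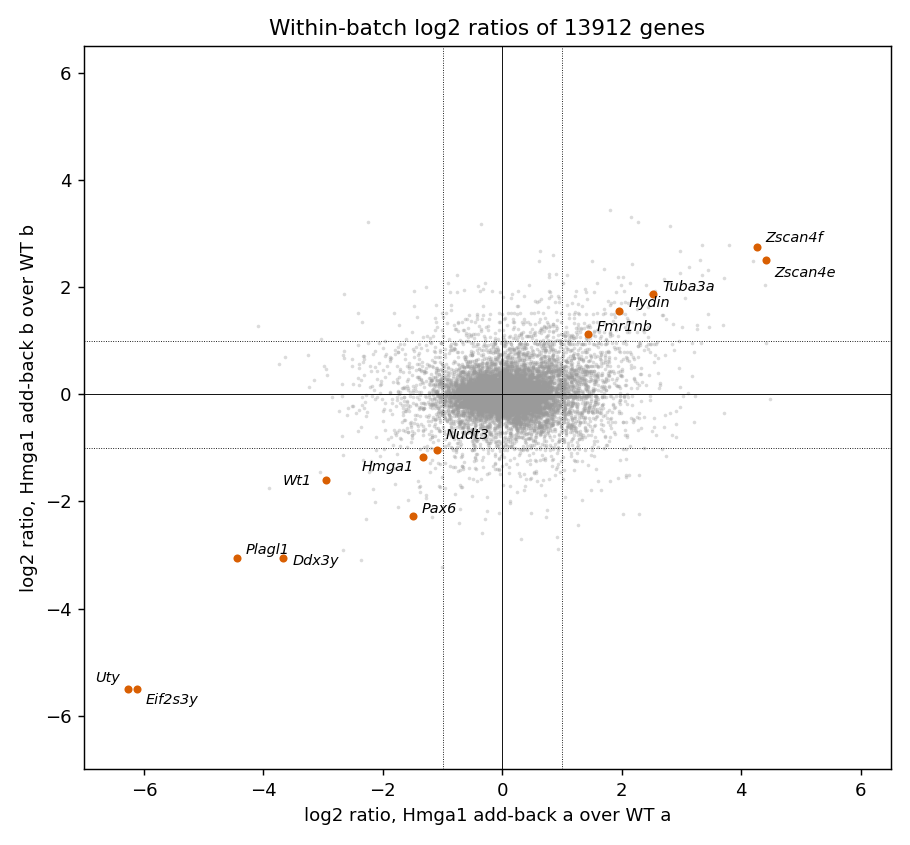
Within-batch log2 ratios of 13912 genes, add-back a over WT a on the x axis and add-back b over WT b on the y axis, with dotted lines at 2-fold and 13 genes named. The cloud of all genes is wider along x than along y and shows almost no tilt, and most named genes lie near the diagonal because they were chosen for a change in the same direction in both batches.

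Plagl1 had the largest drop outside the Y chromosome among the genes named here. Plagl1 (chr10:12810497-12851500), a zinc-finger factor expressed from the paternal copy and placed at the head of a network of imprinted genes, was at 3.004, 2.48 and 2.08 CPM in WT and at 0.0574 and 0.225 CPM in the add-back. The 2 add-back samples held 5 counts in all, 3.64% of WT in the same batches (exact 95% interval 1.16 to 8.72%). The log2 fold change was -4.60 (SE 0.56, edgeR adjusted p 0.0504), and the KO had 0.393 and 0.456 CPM. Over the alternatives the log2 fold change ran from -5.53, without add-back b, to -2.18, with limma-trend on scaled counts plus 8, and the adjusted p lay between 3.60e-04 and 0.657. In the full-deletion experiment the levels were 3.46 ± 0.564 CPM in WT and 3.42 ± 0.875 CPM in the deletion line (SD, n = 3 each), so the low level was not seen there. Of the 13 tested genes of the Plagl1 network, 3 had an unadjusted edgeR p under 0.05, all lower, and 4 lay below the WT range. Beside Plagl1 these were Grb10, an adaptor that dampens insulin and IGF signalling, at 445, 270 and 355 CPM in WT against 155 and 187 CPM (log2 fold change -1.05), and Mest, a hydrolase of the mesoderm, at 189, 101 and 146 CPM against 59.9 and 84.4 CPM (log2 fold change -1.04). In batch b alone these were -0.53 and -0.26. Igf2 and H19, targets of Plagl1 in other tissues, were both at -0.10. Of 27 other imprinted genes, 4 were higher at an unadjusted p under 0.05 and none lower: Impact at 0.43, Peg13 at 1.12, Usp29 at 1.36 and Ascl2 at 0.80. Usp29 had 2.65 in batch a and 0.20 in batch b, where WT b was at 7.60 and add-back b at 8.77 CPM. Impact alone of these was lower in the KO (131 and 144 CPM, against 161 to 177 CPM in WT and 229 and 235 CPM in the add-back).

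**Figure D3:**
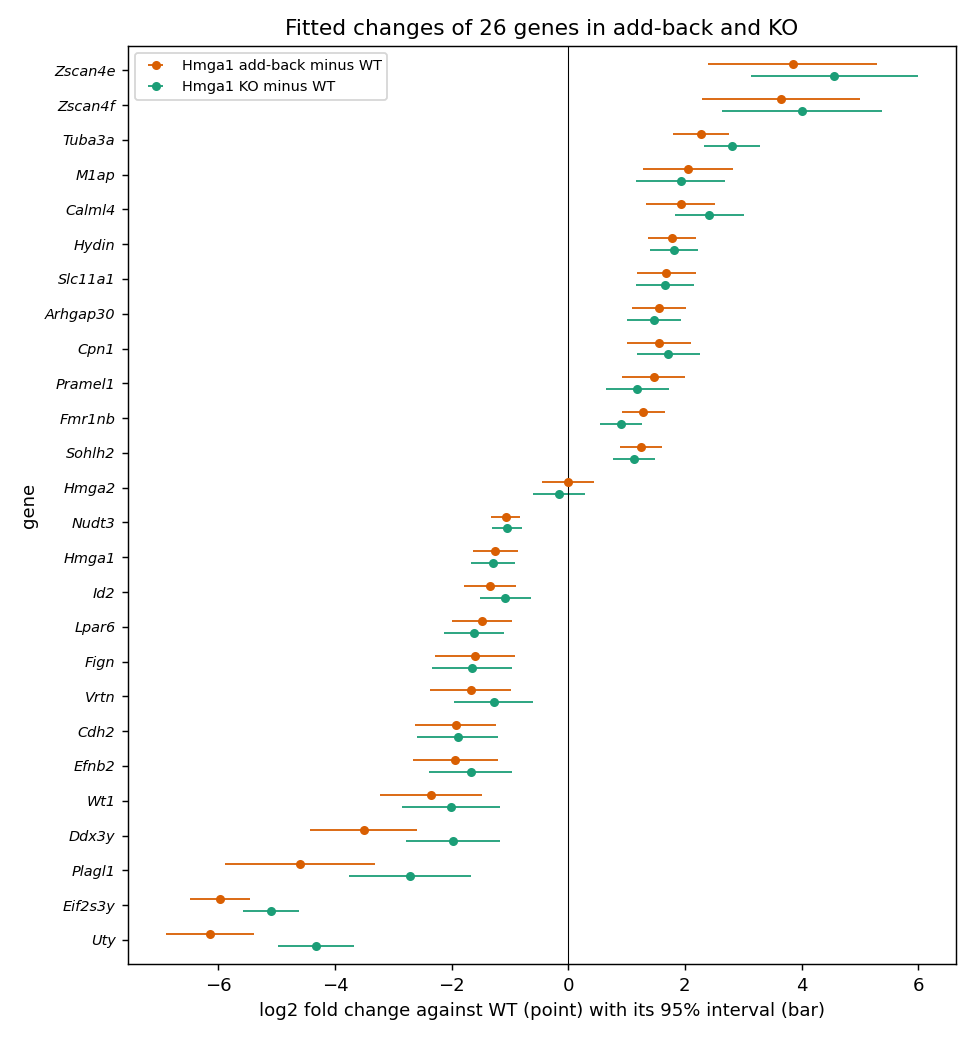
Fitted log2 fold change against WT with its 95% interval for the genes named by their p and size of change and for Hmga1, Hmga2, Plagl1 and Fmr1nb, in the add-back (orange) and the KO (green), which share the WT samples. The intervals of both lines overlap except for Uty, with Eif2s3y, Uty and Plagl1 at the far left and the Zscan4 genes at the far right.

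Among the genes with lower values in both batches were transcription factors and adhesion molecules of differentiating cells. Pax6, a transcription factor of eye and brain, was at 12.8, 17.5 and 12.7 CPM in WT and at 4.48 and 3.52 CPM in the add-back (log2 fold change -1.91, edgeR adjusted p 0.134), with the KO at 10.9 and 4.41 CPM. Wt1, a factor of kidney and gonad, was at 8.35, 7.91 and 5.19 CPM in WT and at 1.01 and 2.55 CPM in the add-back (-2.35, edgeR adjusted p 0.0811). Cdh2, or N-cadherin, was at 6.48, 5.51 and 6.68 CPM in WT and at 1.32 and 1.95 CPM (-1.93, edgeR adjusted p 0.0811). None of the 3 passed an adjusted p of 0.05. Their groups did not overlap, but Wt1 and Cdh2 were named for a 2-fold lower level in both batches. Of all genes, 1056 (7.59%) lay below the WT range. In the full-deletion experiment Wt1 was at 5.79 ± 0.554 CPM in WT and 2.71 ± 0.0233 CPM in the deletion line (SD, n = 3 each). Cdh2 was at 5.53 ± 1.59 and 3.03 ± 0.335 CPM, and Pax6 at 14.9 ± 3.96 and 14.2 ± 0.201 CPM. Id2, which inhibits helix-loop-helix factors downstream of BMP, was at 25.2, 21.2 and 24.3 CPM in WT and at 10.9 and 7.65 CPM in the add-back (-1.33). Further genes at least 2-fold lower in both batches were Efnb2, an ephrin ligand, at -1.94, Lpar6, a lipid receptor, at -1.48, Vrtn at -1.67 and Fign at -1.60. Of the 16 tested genes of the formative and neural list, 9 had an unadjusted p under 0.05 and were lower, none was higher, and 5 lay below the WT range, with a median of -0.59 (-0.92 in batch a, -0.33 in batch b). Beside Pax6 they included the de novo DNA methyltransferase Dnmt3a at -0.70 (-0.36 in batch b), Sox1 at -1.09 (-0.68 in batch b) and Sall2 at -0.76 (-1.04 in batch b). Sox1 was at 35.6 and 26.8 CPM in WT a and c, the samples that stood apart, and at 12.3 CPM in WT b, against 14.1 and 7.65 CPM in add-back a and b. The mesendoderm list had a median of -0.82, but -1.74 in batch a and 0.61 in batch b, with 1 of 19 genes higher (Eomes) and 1 lower (Kdr) at an unadjusted p under 0.05.

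Naive pluripotency genes showed no common shift. Of 26 tested, 1 was higher at an unadjusted edgeR p under 0.05, Tbx3 at 0.72, and 3 were lower, Utf1 at -0.40, Gbx2 at -1.55 and Nr0b1 at -0.80. Gbx2 and Nr0b1 had -0.22 and 0.12 in batch b. The list median was 0.08. The glycolysis and hypoxia list had 10 of 24 genes higher and 2 lower at an unadjusted p under 0.05 and a median of 0.23 (0.34 in batch a, 0.15 in batch b). The KO median was 0.49, and add-back against KO had a median of -0.26 with 10 genes lower. Its 4 smallest p belonged to the enolase Eno1 (0.66), the phosphofructokinases Pfkp (0.67) and Pfkl (0.45), and the vascular growth factor Vegfa (0.46). Of the 21 tested sterol and fatty acid genes, 9 were higher and none lower, with a median of 0.28 in the fit, 0.57 in batch a and 0.03 in batch b. Scd1 (0.72), a fatty acid desaturase, and the sterol enzymes Dhcr7 (0.68), Fdft1 (0.56) and Mvd (0.50) had the smallest p.

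The remaining lists gave few such genes. BMP and TGF-beta targets had 1 higher and 3 lower of 15, the lower being Id2, Id1 at -1.22 (-1.84 in batch a, -0.38 in batch b) and Id3 at -1.08 (-1.53 and -0.57). WT a had 68.3 CPM of Id1 and WT b 29.4 CPM. Targets of FGF and ERK had 3 higher and 2 lower of 21, trophoblast genes 3 higher and none lower of 9, and fibroblast genes 4 higher and 3 lower of 22. Stress genes had 1 higher and 1 lower of 22, interferon response genes the same of 12, replication-dependent histones 2 higher and 2 lower of 27, and heterochromatin and lamina genes none higher and 4 lower of 28. Of 16 p53 targets and 5 genes of X inactivation, none had an unadjusted edgeR p under 0.05. Next to the background of 7.91% higher and 5.35% lower, most of these counts were small numbers over small lists. Of other genes with a 2-fold change in both batches, Arhgap30, a GTPase-activating protein, was at 1.56, Slc11a1, a metal transporter of macrophages, at 1.68, Calml4, a calmodulin-like protein, at 1.93 and Cpn1, a carboxypeptidase of plasma, at 1.56.

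**Figure D4:**
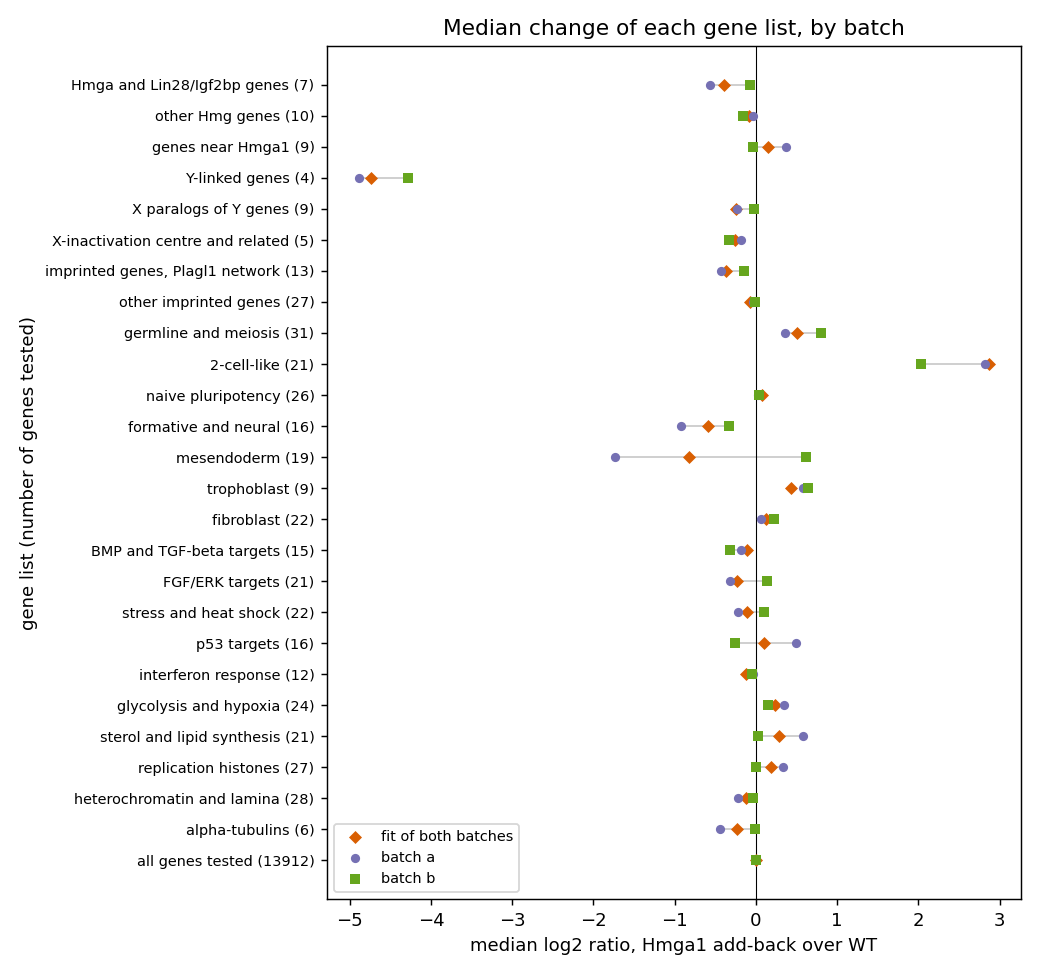
Median log2 ratio of add-back over WT for each gene list, from the fit (diamonds) and within batch a (circles) and batch b (squares), with a grey line joining the batches. The Y-linked and the 2-cell-like lists lie far from 0 in both batches, and the mesendoderm list is on opposite sides of 0.

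The batches gave different pictures genome-wide. In batch a, 1728 genes differed at least 2-fold between add-back and WT, 1184 higher and 544 lower, and in batch b 630 did, 382 higher and 248 lower. Between WT a and WT b alone, 819 genes did. The signs of the ratios were the same in both batches for 7035 genes (50.6%), and Pearson's r between the batches was 0.170 across all 13912 genes (Spearman's rho 0.058) and 0.029 across the 4806 whose counts averaged 1000 or more (rho -0.012). Genes are not independent replicates, and the batches share no library. At least 2-fold higher in both batches were 163 genes (1.17%) and lower 50 (0.359%), while 67 changed at least 2-fold in opposite directions. Level and base composition went with the batch a values. Genes were divided by mean level into 5 classes of equal size. The lowest class (0.215 to 2.79 CPM) had a median log2 ratio of 0.38 in batch a and 0.08 in batch b. In the highest class the median was -0.13 in batch a and 0.00 in batch b. In the fit the lowest class had a median of 0.28, with 418 genes higher and 90 lower at an unadjusted edgeR p under 0.05. The highest class had -0.07 in the fit, with 65 higher and 183 lower. From the least to the most AT-rich of 5 classes of gene bodies, the median went from 0.13 to -0.13 in batch a and from -0.03 to 0.00 in batch b, while between WT a and WT b it went from 0.29 to -0.27. The part of base composition in the values of single genes was not tested.

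Along the chromosomes, medians lay between -0.05 (X) and 0.02, apart from the 3 annotated Y-linked genes tested, at -5.97. Within chromosomes the values of neighbouring genes were alike in 2 places, which were sought after the values had been seen. Of 12316 windows of 15 consecutive genes, 48 had a median log2 ratio of at least 0.5 away from 0, in the same direction, in both batches. All 48 were higher and all lay on chromosome 4. They covered 2 stretches, chr4:138866659-144905067 with 53 genes tested and chr4:148702525-151235985 with 23. Both were picked by their ratios of add-back to WT. Counts and medians of these ratios within them therefore describe the choice and are no test of it.

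In the first stretch 49 of 53 genes had a fitted value above 0, 38 were higher at an unadjusted edgeR p under 0.05 and 1 was lower, and 36 lay above the WT range, but no gene reached an adjusted p of 0.05. Over all 12599 annotated genes tested, 6330 had a fitted value above 0 and 1290 lay above the WT range. At the same unadjusted edgeR p, 1014 of them were higher and 679 lower. The median log2 ratio of the stretch was 0.92 in batch a and 0.66 in batch b, and in the KO it was 0.57. In the Hmga2 add-back it was 0.60 in batch a and 0.46 in batch b, so all KO-derived lines had the shift. The median of the Hmga1 add-back against the KO was 0.16. WT a and WT b differed by a median of 0.13 and WT c and WT b by -0.20, so the WT samples did not share the shift. The 16 genes of the stretch whose counts averaged 1000 or more, where counting error is small, had a median of 0.56 in each batch, a difference of about 1.5 times, against -0.05 in the fit over all such genes. The longest run of genes higher in both batches, 15 genes from Klhdc7a to Arhgef19, lies here. Rcc2, a protein of the inner centromere, was at 844, 549 and 611 CPM in WT a, b and c and at 1145 and 868 CPM in the add-back. Necap2, of clathrin-coated vesicles, was at 41.6, 36.1 and 32.7 CPM in WT and at 95.8 and 65.4 CPM in the add-back (log2 fold change 1.04, edgeR adjusted p 0.0504), and Casp9, the initiator caspase of the mitochondrial pathway of apoptosis, was at 11.9, 12.6 and 9.30 CPM against 37.7 and 21.1 CPM. Padi2, one of 4 tested genes of the peptidylarginine deiminases in a row, was at 8.41, 7.76 and 5.06 CPM against 80.9 and 18.1 CPM, and Pramel1, of a family of preferentially expressed antigens, had a log2 fold change of 1.47. Except for Pramel1, these genes were chosen after their values were seen.

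The second stretch, picked for its add-back values, was higher in the add-back but hardly in the KO. The KO had no part in the choice. A smaller value in the KO, and a positive one of add-back against KO, are therefore favoured by the choice and are no test of a difference. Over its 23 genes the median log2 ratio was 0.68 in batch a, 0.42 in batch b and 0.17 in the KO, and over the 5 whose counts averaged 1000 or more it was 0.33 in batch a and 0.09 in batch b, with 2 of the 5 higher in both. The well-counted genes were thus closer to WT than those of the first stretch. Its longest run of genes higher in both batches, picked for that sign, was 13 genes from Nmnat1 to Eno1, with a median of 0.64 in batch a and 0.67 in batch b, 0.17 in the KO, and 0.25 and 0.10 in batches a and b of the Hmga2 add-back. Against the KO the median of the add-back was 0.64. Eno1 was at 415, 288 and 406 CPM in WT, at 476 and 320 CPM in the KO, at 648 and 458 CPM in the Hmga1 add-back and at 406 and 290 CPM in the Hmga2 add-back, so the Hmga1 add-back was highest in both batches. The log2 fold change of add-back against KO was 0.48 for Eno1 (unadjusted edgeR p 0.00113) and 0.86 for Tmem201, a protein of the inner nuclear membrane (unadjusted edgeR p 1.40e-04), and neither passed after adjustment. Both genes lie in the run picked on the same add-back samples, so these p-values lend it no support. In the full-deletion experiment the medians of deletion line against WT were 0.19 over the first stretch and 0.26 over this run, next to 0.05 over all genes. Eno1 is also the gene with the smallest p in the glycolysis list.

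**Figure D5:**
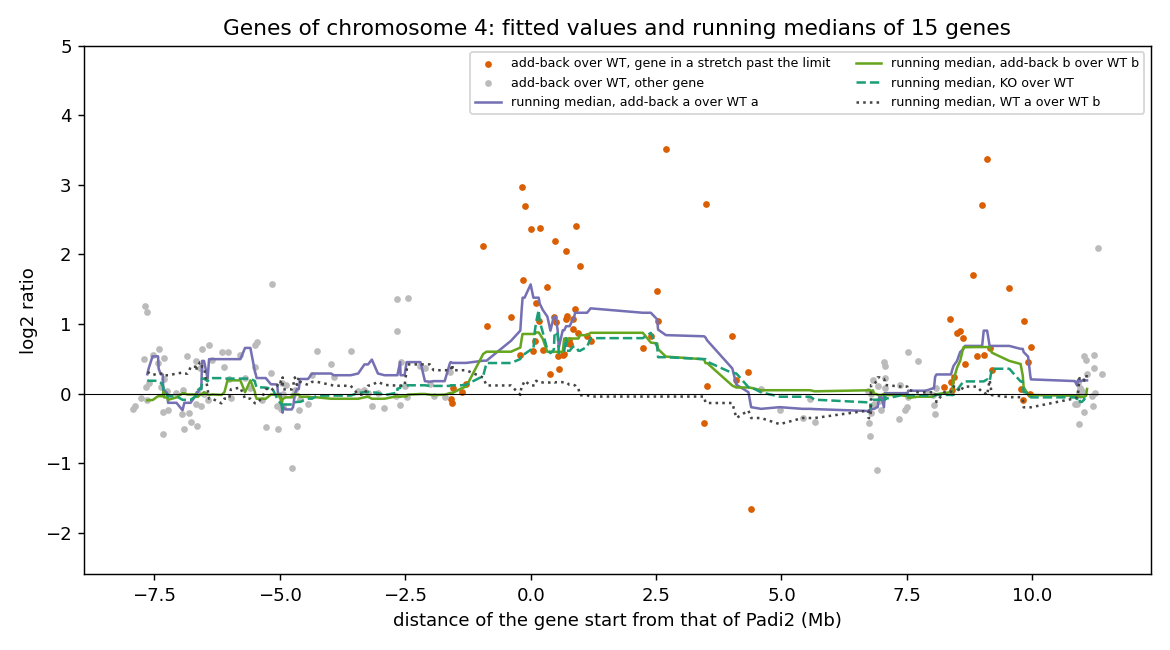
Log2 ratios of genes on chromosome 4 by distance of their start from that of Padi2, in Mb. Points are fitted values of add-back over WT, orange for genes in either stretch; lines are running medians of 15 genes, which for add-back a and b rise above 0.5 around Padi2 and again 8 to 10 Mb further on, while WT a over WT b stays below 0.5.

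Set directly against the KO line from which it was made, the add-back showed no called gene. In edgeR's quasi-likelihood test 0 genes (0.0%) passed an adjusted p of 0.01 with a 2-fold change, and the smallest adjusted p over the genes named was 0.99993. Before adjustment, 176 genes were higher (1.27%) and 214 lower (1.54%) at a p under 0.05, below the share expected with no difference. The log2 fold changes of KO and add-back against WT were alike for Nudt3 (-1.05 and -1.07), Hydin (1.82 and 1.78), Slc11a1 (1.66 and 1.68) and Cdh2 (-1.90 and -1.93). They were further apart for Uty (-4.32 and -6.15), Plagl1 (-2.72 and -4.60), Ddx3y (-1.97 and -3.51), Pax6 (-0.96 and -1.91), Id3 (-0.07 and -1.08) and Eno1 (0.17 and 0.66), and on opposite sides of 0 for Impact (-0.32 and 0.43). These values share the WT samples and are given side by side only, and the genes set here were chosen after their values were seen. Uty, Ddx3y, Plagl1 and Id3 were also below the KO in both batches of the Hmga2 add-back. It had 0.0889 and 0.0704 CPM of Plagl1 (KO 0.393 and 0.456) and 8.44 and 6.55 CPM of Id3 (KO 27.8 and 7.53). Pax6 was lower there in batch a only (3.64 and 4.86 CPM, KO 10.9 and 4.41). Eno1 was not higher there than in the KO.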

How the data were processed

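RNA-seq was analysed for 5 samples of 2 groups within a 9-sample experiment. Libraries preserved strand, were made from total RNA without its ribosomal part, and were read as 50 bases from 1 end. After removal of the first 3 bases the authors aligned the reads to mm9 (NCBIM37) through QuasR, which calls bowtie. Where a read aligned equally well in several places, 1 was drawn at random. Reads were then counted per UCSC known gene if their strand was that of the gene. The deposited values are raw counts. A read of a gene with near-identical copies can thus be counted for another copy.

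Genes whose counts averaged 10 or more were tested with edgeR 4.0.16 in R 4.3.3 (TMM, quasi-likelihood F test, group and batch letter as terms, all 9 samples), with Benjamini-Hochberg adjustment over 13912 genes. Calls required a 2-fold change and an adjusted p under 0.01. The study's own tool, limma-trend, was an alternative, as were DESeq2, other scalings, filters, thresholds and sample sets, and leaving out each sample. The letters pair samples as library batches, as the study's methods state: the difference of a and b in WT correlated across genes with that in the add-back (r = 0.319) and in the KO (0.427). Within-batch ratios used a prior count of 2. Ratios of the KO and Hmga2 add-back within batches along chromosomes and of the full-deletion experiment used CPM plus 0.5. Positions and AT content came from the NCBIM37 annotation for 12599 of the genes tested (90.6%).

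Genes were named by rule: those called at either threshold, the 12 higher and 12 lower with the smallest p among genes at least 2-fold changed in the fit and in both batches and with counts averaging 50 or more, Hmga1, Hmga2, Plagl1 and Fmr1nb, and up to 4 per list. Members and lists were chosen with earlier results of these data known. Tested on data simulated from these samples, the fit recovered 93 of 100 genes given a log2 fold change of 1.5 in this comparison and 97 of 100 given one of 2, among 13912 genes, and called 2 unchanged ones. The changed genes had counts averaging 100 or more. Apart from them, simulated means differed by batch alone, so the background of WT a was not in them. The rates are thus not the power in the real samples. There, Tuba3a at a log2 fold change of 2.28 and Zscan4f at 3.65 were not called.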

Additional observations from a re-analysis of the deposited data

How the results depend on the processing

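The 2 called genes, Eif2s3y and Uty, were among those called under each alternative. Their number stayed at 2 with DESeq2 size factors, summed counts, counts averaging 50 or more, no batch term, only the 5 samples, limma-trend on log2 CPM and no minimum fold, and was 3 with limma-trend on scaled counts. It was 6 without a filter, 6 with batches a and b alone and the replicate block, 6 at an adjusted p under 0.05, and 76 with the DESeq2 Wald test (45 higher, 31 lower). Leaving out 1 sample at a time gave 2 to 37, the highest without WT b. At an adjusted p under 0.05 and 2-fold, 6 genes became 56 without a filter, 11 with DESeq2 size factors, 13 with limma-trend on log2 CPM, 2 without the replicate block, 19 with batches a and b alone and 108 with DESeq2. The cause was not tested.

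Of the values of single genes, 2018 kept their direction and side of the threshold, 47 passed it and 11 changed sign, none of them called: Hmga2 (-0.016 with DESeq2 size factors, -0.0051 with the DESeq2 Wald test, and -0.29 to 0.39 when 1 sample was left out) and Sesn2 (0.029 without the replicate block). With 1 sample left out, Phf1 went from -0.035 to 0.89, Rlim from -0.38 to 0.11, Cdkn1c from -1.36 to 0.017, Sox7 from -2.33 to 0.31 and Ddit3 from -0.30 to 1.51. Scaling moved the median of all genes by -0.02 (DESeq2 size factors) or 0.04 (summed counts). With 2 samples of 1 line, and 13491195 counts in the smallest library, genes of few counts had wide intervals.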
